A study of Mus musculus with 32 samples.

Results

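The genes described here encode 10 proteins that bind N6-methyladenosine (m6A), the methylated adenosine of mRNA, and are called m6A readers: Ythdf1, Ythdf2, Ythdf3, Ythdc1, Ythdc2, Igf2bp2, Igf2bp3, Hnrnpa2b1, Hnrnpc and Fmr1. They were chosen by symbol, and all 10 were found among the 55421 genes of the deposited table. The libraries came from mouse liver after partial hepatectomy (labelled Hepatectomy) or a sham operation (Sham control), in animals labelled Mettl14 KO (here KO) or Flox control (here flox), with 4 animals in each of the 4 combinations and an age of 71 to 77 days on the labels. Liver RNA of each animal went into an input library, prepared with a stranded mRNA kit, and into an IP library, for which RNA was broken to about 100 nucleotides, pulled down with an anti-m6A antibody and prepared with a different kit. What all 4 groups share by label is the tissue. The promoter or cell type that drives the deletion of Mettl14, the deleted exons and the time after surgery are not stated in the labels. Each sample carries a code of its own and is treated here as 1 animal. The labels do not state in words that replicates are separate animals, so p-values measure the spread between these samples.

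Methylated adenosine is written into mRNA by a complex in which METTL3 is the catalytic subunit and METTL14 its RNA-binding partner, and it acts through the proteins that bind it. YTH-domain proteins hold the methylated base directly: the YTHDF proteins work in the cytoplasm on translation and decay, YTHDC1 works in the nucleus on splicing and export, and YTHDC2 is an RNA helicase best known from the germ line. IGF2BP proteins stabilise their target mRNAs, the hnRNP proteins bind nuclear RNA whose folding m6A can change, and FMRP, the product of Fmr1, binds mRNA on ribosomes and holds back translation. An input count stands for the transcript level of a reader gene. An IP count stands for pulled-down fragments of that transcript, so it moves with transcript level as well as with methylation.

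Mettl14 itself could not check the genotype labels. Its count was 0 in 16 of 16 input libraries. In IP it was above 0 in 8 of 16 libraries, with a mean of 3.35 ± 4.04 CPM in sham flox, 1.17 ± 1.37 in sham KO, 1.03 ± 0.959 in hepatectomised flox and 0.769 ± 1.54 in hepatectomised KO animals (SD, n = 4 each), and these values overlapped. CPM here is a count scaled to a library total of 1000000. The library total was 8177746 to 12533871 counts in input and 7133726 to 24297713 in IP, so a count of 0 allows a level of up to 0.239 to 0.367 CPM in input and 0.123 to 0.421 CPM in IP (3 counts, covering counting error only). The number of different RNA molecules behind these counts is not known from the table. The part of library complexity in the many input counts of 0 was not tested, so an input count of 0 does not show that a transcript was absent. The 10 readers together took 0.0331% to 0.135% of the counts of an input library and 0.0580% to 0.0934% of an IP library. The samples are RNA of bulk liver, in which fewer cells of a type and less RNA per cell cannot be told apart.

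By mean CPM per kilobase, Ythdf3 was the highest of the readers and Igf2bp3 the lowest. Levels of different genes were compared as CPM per kilobase of the exon length in the deposited table, and their order depends on that length. Ythdc1, with a length of 13651 bases, averaged 109 CPM in input, beside 125 CPM for Ythdf1 and 92.1 CPM for Ythdf2. In the 16 input libraries Ythdf3 stood at 45.8 ± 25.7 CPM per kb (SD, n = 16), followed by Ythdf1 at 37.7 ± 25.1, Ythdf2 at 20.1 ± 15.4, Hnrnpa2b1 at 18.2 ± 13.6, Hnrnpc at 14.0 ± 14.6 and Ythdc1 at 7.99 ± 5.93. Fmr1 (4.24 ± 4.79), Igf2bp2 (1.56 ± 4.10) and Ythdc2 (1.51 ± 2.54) were lower still, and Igf2bp3 had no input count in any library. No gap between neighbours in this input order was larger than the larger of their SDs. In IP the order by CPM per kb, which uses the same lengths, was the same for all 10 genes. By CPM alone the orders in input and IP differed. Ythdf1 averaged 125 CPM in input and 91.3 CPM in IP, and Ythdc1 109 and 122 CPM. The IP level of Ythdf3 was 45.4 ± 13.5 CPM per kb against 27.5 ± 9.64 for Ythdf1, a gap larger than either SD, and so were the gaps between Ythdc1 (8.97 ± 3.11) and Fmr1 (1.46 ± 0.996) and between Fmr1 and Igf2bp2 (0.424 ± 0.824). The other 6 gaps in IP were not.

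**Figure D1:**
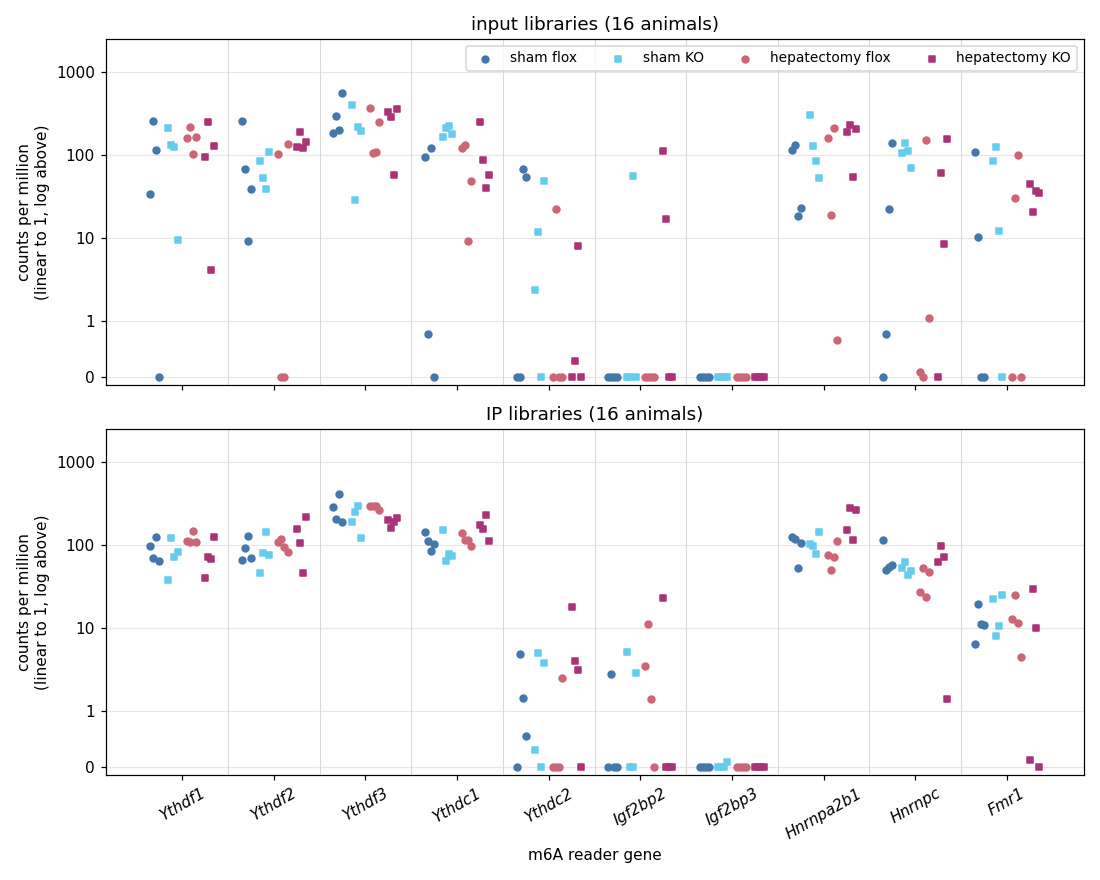
CPM of the 10 reader genes in each of the 16 input libraries (top) and 16 IP libraries (bottom), on an axis that is linear to 1 and logarithmic above, with 1 point per animal and a colour and marker for each group. In input, genes near 100 CPM have animals at 0, while in IP the points of Ythdf1, Ythdf2, Ythdf3, Ythdc1, Hnrnpa2b1 and Hnrnpc all lie above 0.

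Input and IP measured the same genes with very different spread between animals. Of the 160 combinations of reader and input library, 49 were at a count of 0, against 31 in IP. Only Ythdf3 and Hnrnpa2b1 had counts in all 16 input libraries, whereas 6 readers had counts in all 16 IP libraries. Those 6 readers, Ythdf1, Ythdf2, Ythdf3, Ythdc1, Hnrnpa2b1 and Hnrnpc, are also the 6 averaging 50 CPM or more in both kinds of library, and 4 of them nevertheless had an input library at 0. The coefficient of variation within groups, averaged over the 4 groups, was 60.0% to 129% in input and 22.3% to 42.1% in IP for these 6 genes. It was larger in input for 9 of 9 readers with a value in both. The readers shared this with the rest of the table: over 2329 genes with at least 50 CPM in both kinds of library the median was 73.6% in input and 36.3% in IP, and input was the larger for 89.7% of them. Among all genes with a mean of 50 to 100 CPM, 86.9% had an input library at 0 and 5.79% an IP library at 0. At 100 to 300 CPM these shares were 31.0% and 1.25%. Input and IP libraries were made with different kits, so the kit and the kind of library cannot be told apart.

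**Figure D2:**
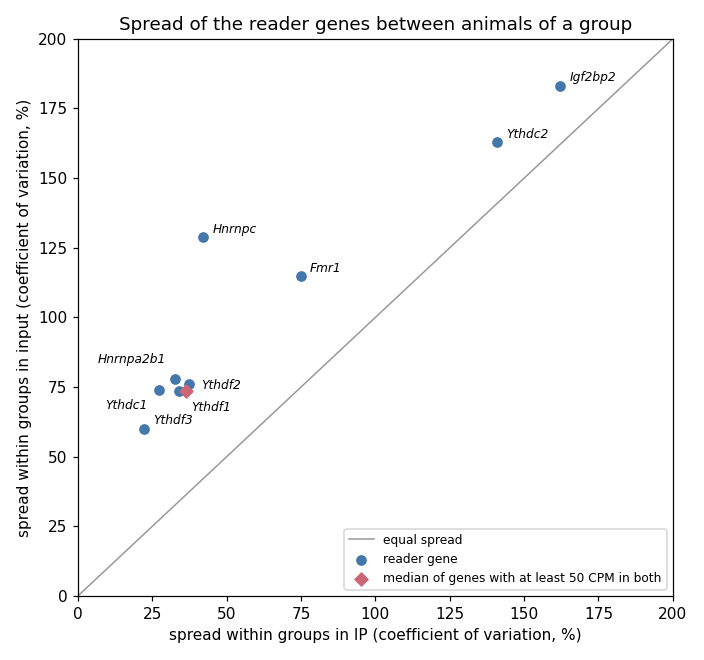
Coefficient of variation within groups (mean of the 4 groups, in percent) of 9 reader genes in IP (x) and input (y), with the line of equal spread and the median of the 2329 genes with at least 50 CPM in both kinds of library. All 9 readers lie above the line, and the readers Ythdf1, Ythdf2, Ythdc1 and Hnrnpa2b1 lie close to the median at 36.3% and 73.6%.

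Ythdf1, whose protein is known for promoting translation of methylated mRNA (ENSMUSG00000038848, chromosome 2, 180904377 to 180920949, minus strand, in the coordinates of the deposited table, whose build is not named), had input levels that covered nearly the whole scale within single groups. In sham flox animals 1 to 4 its input level was 34.4, 254, 114 and 0 CPM, and in sham KO animals it was 211, 131, 126 and 9.54 CPM. Hepatectomised flox animals had 162, 215, 103 and 163 CPM, and hepatectomised KO animals had 95.9, 249, 4.18 and 129 CPM. Low animals appear in 3 of the 4 groups, and the groups overlap. The counts behind the extremes were 0 and 2991 in 2 animals of the same sham flox group. In IP the same gene read 111, 109, 147 and 111 CPM in hepatectomised flox animals and 40.9, 72.4, 68.4 and 124 CPM in hepatectomised KO animals. Hepatectomised KO replicate 4 alone lay above the lowest flox animal. The sham IP levels were 99.3, 70.3, 126 and 65.2 CPM in flox and 38.6, 122, 71.9 and 82.1 CPM in KO animals and overlapped.

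Ythdf2, whose protein recruits the CCR4-NOT deadenylase complex to methylated mRNA (ENSMUSG00000040025, chromosome 4, 132184912 to 132212303, minus strand), had input levels of 102, 0, 0 and 135 CPM in hepatectomised flox and 125, 192, 121 and 142 CPM in hepatectomised KO animals. In sham animals they were 255, 67.5, 9.13 and 39.0 CPM (flox) and 85.6, 52.7, 38.8 and 109 CPM (KO). All 4 hepatectomised KO animals lay above all 4 sham KO animals, and the other pairs of groups overlapped (after scaling by TMM factors, all hepatectomised KO animals also lay above all hepatectomised flox animals, as did 4.46% of genes, and 1.6% were separated between hepatectomised and sham KO animals). In input, 1.64% of the 8769 genes tested were separated in this direction between hepatectomised and sham KO animals, and Ythdf2 was 1 of the 8 readers tested, so separation of a gene is a description here. The fitted change was 1.04 on the log2 scale (SE 1.62, adjusted p = 1, edgeR). In IP, Ythdf2 ranged from 46.5 to 217 CPM over the 16 libraries, and no pair of groups was separated.

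Ythdf3, which acts with both of the other YTHDF proteins (ENSMUSG00000047213, chromosome 3, 16183212 to 16217037, plus strand), had the smallest spread within groups of all readers, in input and in IP. Its IP level in hepatectomised flox animals 1 to 4 was 298, 299.6, 298 and 269 CPM, and in hepatectomised KO animals it was 202, 163, 188 and 211 CPM. All 4 KO animals lay below all 4 flox animals. Of the 14020 genes tested in IP, 3.63% were separated in this direction (5.51% after scaling by TMM factors). In sham animals the IP levels were 292, 208, 415 and 188 CPM in flox and 189, 254, 300.5 and 124 CPM in KO animals, which overlapped. The difference did not pass the threshold of 0.05 after Benjamini-Hochberg adjustment. Hepatectomised KO animals had 191 ± 21.0 CPM and hepatectomised flox animals 291 ± 15.1 CPM (SD, n = 4 each), and the fitted change of KO minus flox was -0.88 on the log2 scale (SE 0.36, adjusted p = 0.254, edgeR). Across both surgeries it was -0.66 on the log2 scale (SE 0.25, adjusted p = 0.225, edgeR). In input, Ythdf3 did not show such a gap, with 364, 104, 109 and 248 CPM in hepatectomised flox and 327, 286, 58.3 and 361 CPM in hepatectomised KO animals.

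Ythdc1, the nuclear YTH protein (ENSMUSG00000035851, chromosome 5, 86804221 to 86836659, plus strand), had input levels of 95.9, 0.765, 121 and 0 CPM in sham flox and 165, 213, 227 and 177 CPM in sham KO animals. The sham KO animals were all above the sham flox animals, of which 2 were at or near 0. In hepatectomised animals the input levels were 121, 133, 9.25 and 49.3 CPM (flox) and 250.2, 87.8, 40.0 and 57.0 CPM (KO) and overlapped. Among all genes tested in input, 1.73% were separated with sham KO higher (2.09% after scaling by TMM factors), and the fitted change of Ythdc1 was 2.03 on the log2 scale (SE 1.46, adjusted p = 1, edgeR). The IP level did not show it: it was 144, 113, 84.7 and 104 CPM in sham flox and 155, 64.6, 78.9 and 73.6 CPM in sham KO animals. An unnamed gene on the same strand, ENSMUSG00000105704, overlaps Ythdc1 and held 4978 input and 6974 IP counts beside 19376 and 30921 of Ythdc1 itself, and 10 of the 32 deposited values of Ythdc1 were not whole numbers, so reads could be divided between both genes.

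Ythdc2 (ENSMUSG00000034653, chromosome 18, 44827746 to 44889724, plus strand) was at 0 in 8 of 16 input and 6 of 16 IP libraries. Its highest input level was 67.8 CPM, in a sham flox animal, and its highest IP level was 18.0 CPM, in a hepatectomised KO animal. In sham flox input libraries it read 0, 0, 67.8 and 53.7 CPM, so that animals of 1 group held 0, 0, 691 and 662 counts. Libraries of like total in 1 group thus held either no count or many, and no direction is read from this gene.

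The IGF2BP genes had no counts in most libraries. Igf2bp3 (ENSMUSG00000029814, chromosome 6, 49085223 to 49214957, minus strand), best known from embryonic tissue and tumours, had a count of 0 in 31 of 32 libraries and 2 counts in 1 sham KO IP library (0.0823 CPM). Igf2bp1, its paralogue, had no count in any library. ENSMUSG00000029815, which overlaps Igf2bp3 on the opposite strand, had 58 input and 2078 IP counts. Igf2bp2 (ENSMUSG00000033581, chromosome 16, 22059009 to 22163299, minus strand) was at 0 in 13 of 16 input and 9 of 16 IP libraries.

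Over 26 comparisons edgeR made 1 call on a reader, on Igf2bp2, which had counts in only 3 input libraries. In input its count was 0 in 8 of 8 flox animals, in 3 of 4 sham KO animals and in 2 of 4 hepatectomised KO animals. The other KO animals had 569 counts (55.8 CPM, sham KO replicate 3), 1371 counts (112 CPM, hepatectomised KO replicate 1) and 181 counts (17.1 CPM, hepatectomised KO replicate 2). In IP it had 302 counts over the 8 flox libraries, from 4 animals, and 553 counts over the 8 KO libraries, from 3 animals, 1 of which gave 395. Pooled over the 8 libraries, the IP level of KO animals was 0.171 times the input level. For flox animals it was 2.55 CPM in IP, with no input count. Taking 3 counts over the group as the floor of the input would give a flox ratio of 79.7. That floor covers counting error only, and an input count of 0 does not show that the transcript was absent. The 79.7 is therefore no lower bound, and no size of difference is read from it. The difference of the log2 ratio of IP to input between KO and flox animals, averaged over both surgeries, was -6.59 on the log2 scale (adjusted p = 0.0427, edgeR). This fitted value depends on a prior count, is no bound and has no usable SE, since all flox input libraries were at 0. In this comparison 4.11% of all genes tested were called. With the animal as a block for its pair of libraries the value was -2.54 with an adjusted p of 0.958 (edgeR), and in 14 of the 16 fits that left out 1 animal the call was lost. It ended, among others, without sham KO replicate 3 (-2.96, adjusted p = 1, edgeR) and without sham flox replicate 2 (-5.31, adjusted p = 1, edgeR), 2 fits that gave no usable error, and it held without sham flox replicate 3 or hepatectomised KO replicate 1.

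Hnrnpa2b1, a nuclear RNA-binding protein proposed to read m6A in microRNA precursors (ENSMUSG00000004980, chromosome 6, 51460932 to 51469894, minus strand), also had IP levels that did not overlap between genotypes after hepatectomy. Its IP level was 75.8, 50.9, 72.4 and 113 CPM in hepatectomised flox animals 1 to 4 and 155, 278, 115 and 267 CPM in hepatectomised KO animals. All 4 KO animals lay above all 4 flox animals, with 115 against 113 CPM at the nearest point. In the same comparison 4.37% of all genes tested in IP were separated with KO higher, and after scaling by TMM factors Hnrnpa2b1 overlapped. The sham IP levels were 124, 118, 53.9 and 108 CPM (flox) and 105, 96.8, 78.3 and 143 CPM (KO) and overlapped. The fitted change in hepatectomised animals, KO minus flox, was 1.11 on the log2 scale (SE 0.40, adjusted p = 0.201, edgeR). It passed the threshold when only genes with a mean of at least 50 CPM were tested (1.33, adjusted p = 0.0207, edgeR), where 13.5% of 2872 genes were called, and with DESeq2 (1.24, adjusted p = 0.0351), which called 5.77% of 14020 genes. The 16 fits that left out 1 animal used the main edgeR settings, under which it had not passed with all animals. It passed in none of them (0.94 to 1.33, adjusted p 0.19 to 0.372, edgeR). The filter at 50 CPM and DESeq2 were not refitted in this way, so these fits do not bear on those passes. The change in sham animals was -0.072 on the log2 scale (SE 0.39, adjusted p = 1, edgeR), and the difference between both changes was 1.18 on the log2 scale (SE 0.56, adjusted p = 0.629, edgeR). The input level overlapped between genotypes, at 162, 19.2, 210.3 and 0.669 CPM in hepatectomised flox and 189, 227, 54.7 and 205 CPM in hepatectomised KO animals.

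**Figure D3:**
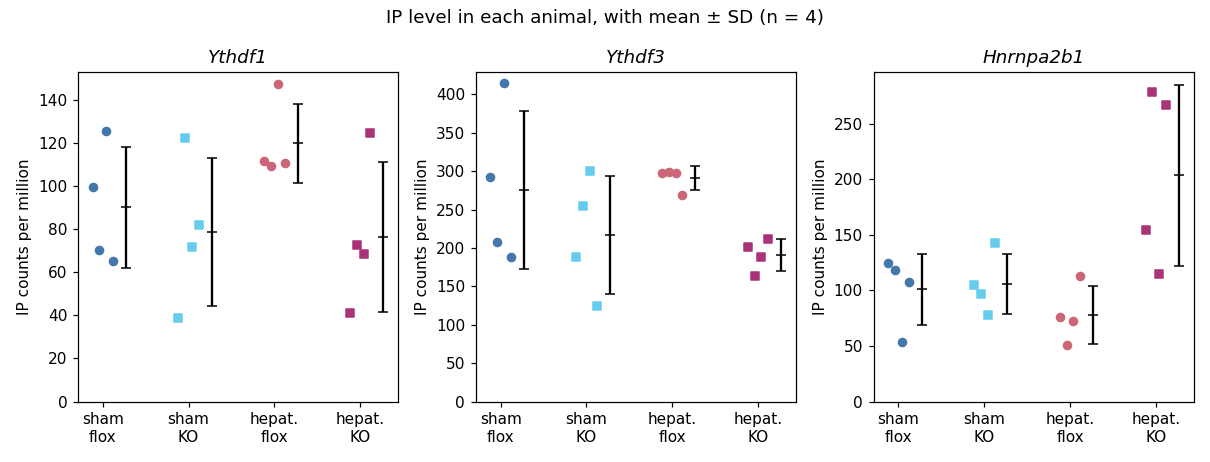
IP level in CPM of Ythdf1, Ythdf3 and Hnrnpa2b1 in each animal of the 4 groups (points), with the mean ± SD of 4 animals beside them, on axes that start at 0. In hepatectomised animals the KO points of Ythdf3 lie below and those of Hnrnpa2b1 above all flox points, and in sham animals they overlap. Of all genes tested in IP, 3.63% were separated with hepatectomised KO animals lower and 4.37% with them higher, by CPM.

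Hnrnpc, which binds uridine tracts that m6A can expose (ENSMUSG00000060373, chromosome 14, 52073377 to 52104028, minus strand), had the widest input spread of the 6 abundant readers. Hepatectomised flox animals read 0.0824, 0, 149.8 and 1.09 CPM in input, and sham flox animals 0, 0.765, 22.3 and 141 CPM. Sham KO animals stood together at 107, 138, 110.5 and 70.4 CPM, and hepatectomised KO animals at 0, 61.1, 8.60 and 154 CPM. In both flox groups 1 animal alone reached the level of the sham KO animals. In IP, Hnrnpc was above 0 in every library and ranged from 1.40 to 115 CPM. Of its 32 deposited values 16 were not whole numbers, so its reads may have been divided with other places or genes and its levels are uncertain.

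Fmr1 (ENSMUSG00000000838, chromosome X, 68678541 to 68717963, plus strand) stood at 38.0 ± 42.9 CPM in input and 13.1 ± 8.93 CPM in IP (SD, n = 16 each). It was at 0 in 5 input libraries and 1 IP library. In hepatectomised KO animals its input level was 45.0, 20.5, 36.6 and 34.8 CPM and its IP level 0.116, 29.4, 10.2 and 0 CPM. In these 4 animals input was even and IP was not, whereas in hepatectomised flox animals input read 0, 30.7, 99.5 and 0 CPM and IP 13.1, 25.4, 11.6 and 4.47 CPM.

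The tests of transcript level asked whether loss of Mettl14 or the operation moved the readers. In input 8 readers had enough counts to be tested, all but Igf2bp2 and Igf2bp3, and edgeR called 0 of them in each of 7 comparisons, with 0 at an unadjusted p under 0.05, where 2.73% to 17% of all genes tested were. That share depended on level. When only genes with a mean of at least 50 CPM were fitted, it was 1.37% to 2.56%, and 6 of the readers average that much. The absence of readers under that p is therefore not read as stability. After adjustment the same test called few genes at all: 0.0342% of 8769 between hepatectomised KO and flox animals, 0.0114% between sham KO and flox animals, 0.0798% between genotypes averaged over both surgeries, and 0.0228% both for the operation in KO animals and for the operation averaged over genotypes. For the operation in flox animals and for the interaction it called 0.0% of genes. DESeq2 called 0 readers in these input comparisons as well. Of all genes it called 7.45% between genotypes in sham animals, 12% in hepatectomised animals and 15.9% over both surgeries. For the operation it called 15.4% in flox animals, 1.69% in KO animals and 14.1% over both genotypes, and for the interaction also 14.1%. The intervals were wide. For Ythdf3, the best measured, the input change of KO minus flox averaged over both surgeries was 0.077 on the log2 scale (SE 0.59, adjusted p = 1, edgeR) and had a 95% interval of -1.10 to 1.26. For Hnrnpc it was 1.22 on the log2 scale (SE 1.51, adjusted p = 0.957, edgeR) with an interval of -1.80 to 4.23. The median of the 8 readers in that comparison was 0.67 and that of all genes tested 0.45 (log2). The fitted change of Ythdf3, hepatectomy minus sham over both genotypes, was -0.15 on the log2 scale (SE 0.59, adjusted p = 1, edgeR) in input, with an interval of -1.33 to 1.03.

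In IP 9 readers were tested, all but Igf2bp3, in the same 7 comparisons, and edgeR called 0 in each. At an unadjusted p under 0.05 there were 2 between hepatectomised KO and flox animals (Hnrnpa2b1 and Ythdf3), 1 between genotypes averaged over both surgeries (Ythdf3), and 1 each for the operation in KO animals and for the interaction (Hnrnpa2b1 in both). Of all genes tested, 13.3%, 13.4%, 9.46% and 7.88% were under that p in these 4 comparisons, so 1 or 2 of 9 readers is close to the background. Between hepatectomised KO and flox animals 1.5% of 14020 genes were called, and by CPM 4.37% were separated with KO higher and 3.63% with KO lower. The share called was 0.0927% between sham KO and flox animals, 1.42% between genotypes over both surgeries, 0.0285% for the operation in flox animals, 0.635% in KO animals and 0.656% over both genotypes, and 0.0285% for the interaction. Of the readers, Hnrnpa2b1 was separated with KO higher and Ythdf3 with KO lower. When levels were also scaled by the TMM factors of edgeR, 0.887 to 0.954 in hepatectomised flox and 1.06 to 1.14 in hepatectomised KO animals, Hnrnpa2b1 overlapped, Ythdf3 stayed separated and Ythdf1 became separated with KO lower, beside 5.51% of all genes in that direction. The change of Ythdf1 was -0.92 on the log2 scale (SE 0.45, adjusted p = 0.380, edgeR). The changes of Ythdf2 (0.092, SE 0.46), Ythdc1 (0.24, SE 0.38), Hnrnpc (0.34, SE 0.69) and Fmr1 (-0.76, SE 1.36) on the log2 scale were smaller than their SEs.

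**Figure D4:**
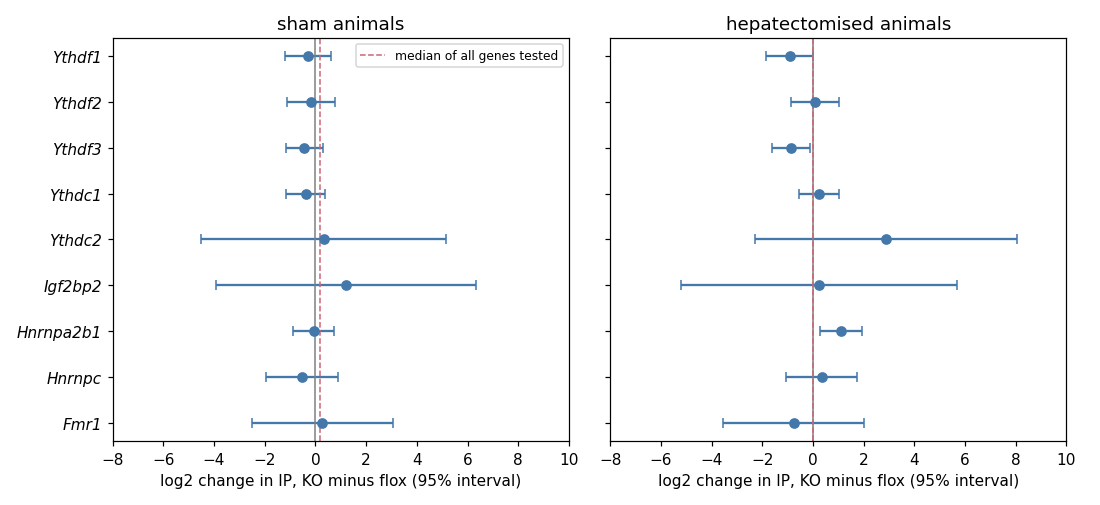
Log2 change of the IP level, KO minus flox, with its 95% interval (edgeR, points and bars) for the 9 readers tested, in sham animals (left) and hepatectomised animals (right), with the median of all genes tested as a dashed line. In hepatectomised animals the intervals of Ythdf3 and Hnrnpa2b1 exclude 0, that of Ythdf1 ends just above 0, and Ythdc2 and Igf2bp2 have intervals over 10 log2 units wide.

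Sums of cell type markers in the same IP libraries differed between hepatectomised KO and flox animals for some cell types. Some also differed between sham KO and flox animals. The summed IP level of 6 hepatocyte markers was 14382 to 33276 CPM in hepatectomised KO and 39965 to 50359 CPM in hepatectomised flox animals, and did not overlap. Alb, Apoa1 and Fgb make up most of this sum. Cps1, the first enzyme of the urea cycle, had the higher mean in KO animals, at 904 ± 154 against 562 ± 36.7 CPM, whereas the other 5 markers had the lower mean there (SD, n = 4 each). The 6 markers of Kupffer cells and macrophages summed to 308 to 849 against 269 to 376 CPM, with none at 0 in all 4 libraries of a group. Clec4f was the largest part of this sum (374 ± 111 against 211 ± 26.5 CPM). Adgre1 had the lower mean in KO animals (2.24 ± 2.40 against 5.75 ± 7.17 CPM), and the other markers had the higher mean there. The 5 markers of stellate cells and fibroblasts summed to 346 to 540 against 161 to 220 CPM, and the 4 of dividing cells to 385 to 1804 against 264 to 449 CPM. The 5 endothelial markers summed to 63.6 to 477 against 112 to 197 CPM. The 3 cholangiocyte markers found summed to 35.0 to 157 against 5.64 to 106 CPM. The 5 of lymphocytes and neutrophils summed to 12.8 to 357 against 0 to 43.2 CPM. Only the hepatocyte and stellate cell sums did not overlap. In input the hepatocyte sum was 42417 to 52011 CPM in hepatectomised KO and 50018 to 51916 CPM in hepatectomised flox animals, which overlapped. In sham IP libraries the stellate cell and fibroblast markers summed to 156 to 558 CPM in KO and 109 to 144 CPM in flox animals. The cholangiocyte markers summed to 24.7 to 88.7 CPM in sham KO and 5.08 to 19.3 CPM in sham flox animals. Neither overlapped there, and the other sums did. The part of these marker shifts in the values of Ythdf3 and Hnrnpa2b1 was not tested.

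Over the 16 IP libraries the genes whose levels ran most like Ythdf3 were Zkscan1, Arg1, Ppp4r3a, Vcpip1 and Iigp1, with Pearson r of log2(CPM + 1) of 0.82, 0.81, 0.80, 0.80 and 0.76, given as a description. The 2669 genes compared, each averaging 50 CPM or more in IP, had a median r of -0.042 with Ythdf3. Arg1 encodes the urea cycle enzyme arginase of hepatocytes. The 16 points share 4 groups and the depth of each library. Among the 6 abundant readers themselves, the 15 pairs had r from -0.70 to 0.56 in IP (median -0.21) and from -0.26 to 0.40 in input (median 0.042).

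The ratio of IP to input asks how strongly a reader's own transcript was pulled down. Averaged over the 4 groups, edgeR called 0 of 9 readers, where 34.8% of 14328 genes were called, 4847 of them higher and 143 lower in IP. The median log2 change of the 9 readers was 0.089 and that of all genes tested 1.07. Ythdf3 stood at 0.099 on the log2 scale (SE 0.34, adjusted p = 0.950, edgeR), Ythdc1 at 0.36 on the log2 scale (SE 0.53, adjusted p = 0.731, edgeR) and Ythdf1 at -0.37 on the log2 scale (SE 0.55, adjusted p = 0.734, edgeR). Ythdf2 (0.31, SE 0.60), Hnrnpa2b1 (0.089, SE 0.48) and Hnrnpc (0.038, SE 0.81) were near 0 on the log2 scale, and Fmr1 (-1.49, SE 1.06) and Ythdc2 (-2.01, SE 1.32) were below 0 with intervals across 0. Igf2bp2 was at 0.53 on the log2 scale (unadjusted p = 0.0467, adjusted p = 0.114, edgeR), where 41.5% of all genes were under an unadjusted p of 0.05. Its value has no usable SE either, for the same counts of 0 in flox input libraries. The share of all genes called depended on their level: of 2827 genes with a mean of at least 50 CPM, 44 were higher and 94 lower in IP, and the median was 0.063. Without hepatectomised flox replicate 4, Ythdc2 was called lower (-2.72, adjusted p = 0.0378, edgeR), with 115 genes called lower in that fit. Without sham KO replicate 3 Igf2bp2 was called higher (2.34, adjusted p = 0.00713, edgeR), with 5351 genes called higher. DESeq2 called Igf2bp2 over the mean of all 4 groups, where it called 44.3% of all genes, in sham flox (24.7%) and in hepatectomised flox animals (28.8%). It also called Igf2bp2 in the change of the ratio between genotypes in sham animals, with 17.3% of all genes, and in hepatectomised animals, with 22.6%, so 1 of 9 readers is no more than the background. Within single groups edgeR called no reader either with all animals in the fit, beside 0.279% of genes in sham flox, 0.0209% in sham KO, 1.24% in hepatectomised flox and 0.37% in hepatectomised KO animals. In the genotype comparison of this ratio 0.712% of all genes and no reader were called in hepatectomised animals, and 0.0209% and no reader in sham animals. For the operation the shares were 0.181% in flox and 0.0349% in KO animals, and 0.0419% for the interaction, again with no reader. In hepatectomised animals the log2 change of the ratio, KO minus flox, was -1.48, SE 0.96, for Ythdf3, against a median of -0.78 over all genes tested, and 0.0052 for Hnrnpa2b1 (SE 1.39).

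All 10 readers have a long internal block of merged exons, a feature the choice of genes did not use. A block joins overlapping exons of all transcripts in the table, so it need not be an exon of any transcript. Methylated sites are known to gather in long exons and near stop codons. In the merged exons of the table, the longest internal block measured 1230 bases in Hnrnpc to 3746 bases in Ythdc1 and was over 1000 bases in all 10 readers. Of 7336 protein-coding genes averaging 10 CPM or more in IP, 39.4% had such a block and the median longest block was 683.5 bases. Ythdc2, Igf2bp2 and Igf2bp3 average less than that limit. Of all 14383 protein-coding genes with a count in IP, which include the 10 readers, 34.9% had such a block. Merging transcripts that retain an intron lengthens a block, and with 10 chosen genes this is a description.

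Other genes of the m6A pathway were taken from lists and counted in the same fits. Of 12 writers and erasers tested (Rbm15 was not matched to a row), 3 were called higher in IP than in input averaged over the 4 groups: Mettl3, the catalytic subunit, Mettl14, and Cbll1, the ubiquitin ligase of the writer complex. Over all genes 33.8% were called higher in this comparison, so the counts of the lists are at or below the background. Mettl3 was at 0 in input in 3 of the 4 groups and had 10.2 ± 10.5 CPM in sham flox IP libraries (SD, n = 4). Of 10 other m6A binding proteins tested, Prrc2a (0.74, adjusted p = 0.0464, edgeR) and Eif3a (0.54, adjusted p = 0.0238) were higher in IP. Of 11 genes of deadenylation and decay, Cnot8, a catalytic deadenylase of the CCR4-NOT complex, and Pop1, a subunit of RNase P and MRP, were higher, both from input levels near 0. None of 3 splicing and export genes (Srsf3, Srsf10 and Nxf1) and none of 3 tested genes of stabilisation and translation passed. The list medians were 0.61, 0.49, 0.080, 0.64 and 0.094 in that order, beside 1.07 over all genes tested. In the input and IP comparisons between genotypes and between surgeries no gene of these 5 lists was called. In the changes of the ratio of IP to input between genotypes or surgeries, Cbll1 was the only one, with a higher ratio after hepatectomy than sham averaged over both genotypes (6.72 on the log2 scale, adjusted p = 0.0462, edgeR), a comparison in which 0.53% of all genes were called. Among single groups, Cbll1 was also called higher in IP than in input in hepatectomised flox animals (7.76 on the log2 scale, adjusted p = 0.0405, edgeR). Its input level was 143 ± 106 CPM in sham KO and 4.24 ± 7.79 CPM in hepatectomised KO animals, while its IP level was 24.9 ± 9.59 and 54.8 ± 21.4 CPM (SD, n = 4 each). In sham and hepatectomised flox animals its input level was 20.8 ± 41.5 and 0.0209 ± 0.0418 CPM, and its IP level 26.2 ± 13.1 and 32.2 ± 19.2 CPM. Both log2 values of Cbll1 rest on an input group near 0, so their size is uncertain.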

How the data were processed

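The deposited table holds estimated counts per Ensembl gene and library, mostly whole numbers, as the authors deposited them; fastp and STAR are the programs named, per the submitters' processing notes. Their versions, the counting program, the strand setting and the build were not given. All 32 columns of values were used after rounding. Names came from matching gene positions against RefSeq genes of GRCm38.p6, used only for names: 33053 of 55421 received a symbol, against 338 when every position was moved by 1000000 bases.

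The tests used the quasi-likelihood fit of edgeR 4.0.16 under R 4.3.3 (TMM factors, filterByExpr with a minimum count of 10, quasi-likelihood F-tests, prior count 2, Benjamini-Hochberg adjustment over all genes tested, threshold 0.05, intervals at 95%). An SE is the size of the fitted log2 change divided by the square root of its F statistic, and the interval follows from it. None is given for the ratios of Igf2bp2 and Cbll1, which have an input group at or near 0 in every library. Input and IP were fitted over 16 libraries each, and ratios of IP to input over all 32. The main ratio fits had no term for the animal, so their values do not use the pairing of libraries. With the animal as a block, the share of genes under an unadjusted p of 0.05 (edgeR) differed. Between genotypes it was 2.6% against 14.8% in sham and 6.57% against 21.4% in hepatectomised animals. For IP against input over all 4 groups it went the other way, at 49.0% against 41.5%. DESeq2 1.42.0 was an alternative, and the other alternatives are named in the closing section. The fitting script was tested on simulated data. All 10 readers were named, and of each list up to 4 called genes with the smallest adjusted p, with Mettl14 always. For the reader with the highest mean IP level, the 5 genes with the highest correlation were named. The members and lists were chosen with earlier results of these data known.

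The labels pair the input and IP library of an animal. Over 308 genes with at least 300 CPM, deviations from group means in both libraries of an animal correlated with r of -0.16 to 0.21 (median 0.056). These correlations run across genes, which are no replicates. For 9 of 16 inputs the best match in the group was the IP library of the same animal. The value with each animal as a block is given beside Igf2bp2. The labels name no molecular identifiers, and PCR copies are not independent molecules, so floors cover counting error only. Sequences are not printed because no result turned on one.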

Additional observations from a re-analysis of the deposited data

Results flagged for a closer look

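In 15 of 71 sets of 4 libraries of a reader with counts, 1 library stood apart from the other 3, by Dixon's test of the gap to the nearest library at 95%. For normally distributed values chance gives this in about 1 of 20 sets. That rate does not hold for a gene with counts of 0, and in 6 of the 15 sets the other 3 libraries were all at 0, so the number of sets is not read against it. The sets are of 1 gene and 1 group each, and no cause was tested.

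Most of these are genes at or near 0 in the rest of the group. For Ythdc2 the single libraries were at 22.3 CPM (hepatectomised flox input), 7.94 CPM (hepatectomised KO input) and 2.54 CPM (hepatectomised flox IP). For Igf2bp2 they were at 55.8 CPM (sham KO input), 112 CPM (hepatectomised KO input), 2.82 CPM (sham flox IP) and 23.0 CPM (hepatectomised KO IP). The single IP library with counts of Igf2bp3, in sham KO, was at 0.0823 CPM. Hnrnpc had 1 library of 141 CPM in sham flox input, where the nearest was at 22.3 CPM, and 1 of 149.8 CPM in hepatectomised flox input, where the nearest was at 1.09 CPM. Fmr1 had 108 CPM in 1 sham flox input library, where the nearest was at 10.4 CPM.

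In IP the abundant readers gave 4 such libraries. Ythdf1 was at 147 CPM in 1 hepatectomised flox animal, where the nearest was at 111 CPM. Ythdf3 was at 269 CPM in 1 hepatectomised flox animal, below the nearest at 298 CPM. Ythdc1 was at 155 CPM in 1 sham KO animal, where the nearest was at 78.9 CPM. Hnrnpc was at 115 CPM in 1 sham flox animal, where the nearest was at 58.7 CPM.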

How the results depend on the processing

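The number of readers called was recomputed under alternatives in all 26 comparisons, which gave 614 values, of which 586 left the count as it was. For KO against flox IP in hepatectomised animals, the count went from 0 to 1 (Hnrnpa2b1) with a filter at a mean of 50 CPM and to 1 with DESeq2. With DESeq2 it also went from 0 to 1 (Igf2bp2) for the change of IP/input between genotypes in sham and in hepatectomised animals, and for IP against input in sham flox, in hepatectomised flox and over the mean of all 4 groups, comparisons in which DESeq2 called 17.3% to 44.3% of all genes. The 1 call on Igf2bp2 in the change of IP/input over both surgeries went to 0 without TMM factors, with RLE size factors, with the filter at 50 CPM (Igf2bp2 was then not tested), with the animal as a replicate block and without the 2 sham flox animals aged 77 days. Leaving out 1 animal gave 0 to 1 calls there, and 0 to 1 in IP against input over the mean of all 4 groups. The cause of these changes was not tested. The replicate numbers of the labels share only a number across groups (r of -0.15 to 0.094 in input and -0.40 to 0.55 in IP), and a replicate block on them left 0 readers called in input and in IP. CPM scaled by TMM factors was an alternative chosen after seeing the data: it left 1, 0 and 2 readers without overlap between hepatectomised KO and flox animals, in input with KO higher, in IP with KO higher and in IP with KO lower. On that scale 4.46% of all genes tested were separated in input with KO higher and 5.51% in IP with KO lower. Ythdc2, Igf2bp2, Igf2bp3 and Fmr1 were each at 0 in 5 or more input libraries, and the cause of these counts of 0 was not tested.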
